A study of Rattus norvegicus with 15 samples.

Results

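The Tribbles genes Trib1 and Trib2 and the C/EBP transcription factor genes Cebpa, Cebpb, Cebpd and Cebpg were followed in cultured rat spermatogonial stem cells, which renew the male germ line, as glial cell line-derived neurotrophic factor (GDNF) was removed and returned. These are 6 of the 14218 genes that the array names, and they were chosen by their measured log2 intensities over the 5 groups. The levels and differences below are therefore descriptions without a test. All probe sets whose only gene symbol was one of the 6 were used, 16 in all. Of these 3 belonged to Trib1, 2 to Trib2, 5 to Cebpa, 1 to Cebpb, 3 to Cebpd and 2 to Cebpg. The cells had spent 1 month in serum-free culture with GDNF, which signals through the receptor kinase RET and its co-receptor GFRA1. Each of the 5 groups had 3 independent cultures with 1 array each, 15 arrays in all. The withdrawal group had 18 h without GDNF. The 2 h, 4 h and 8 h replacement groups had the same 18 h without it followed by GDNF for that time. The control group was kept with GDNF. No strain, age or other treatment is given in the sources used here. No group left without GDNF until the replacement times is analysed here, so time in culture and the return of GDNF cannot be told apart.

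Tribbles proteins are pseudokinases that hold a substrate and the ubiquitin ligase COP1 together, and in myeloid cells of mouse and human TRIB1 and TRIB2 send C/EBP alpha to the proteasome in this way. C/EBP proteins bind DNA as dimers through a basic leucine zipper. C/EBP alpha is known for cell cycle exit and differentiation in fat, liver and myeloid cells, C/EBP beta and C/EBP delta for early responses to cytokines and hormones, and C/EBP gamma for pairing with other bZIP proteins while having little activating domain of its own. The arrays measured transcripts and not these proteins.

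The 250 bases before the annotated start of Trib2, Cebpa, Cebpb and Cebpg are shown because they are the stretch in which matches to binding motifs of growth factor, cytokine and stress responses, and of C/EBP itself, were searched. RefSeq's table for the rat build GRCr8 held a promoter for 4 of the 6 genes, and Trib1 and Cebpd are named only. The stretches lie at chr6:44299095-44299344 (− strand) for Trib2, chr1:96896334-96896583 (+ strand) for Cebpa, chr3:176816755-176817004 (+ strand) for Cebpb and chr1:96829737-96829986 (− strand) for Cebpg. Each is written 5′ to 3′ towards the gene with motif matches in capitals.
Trib2: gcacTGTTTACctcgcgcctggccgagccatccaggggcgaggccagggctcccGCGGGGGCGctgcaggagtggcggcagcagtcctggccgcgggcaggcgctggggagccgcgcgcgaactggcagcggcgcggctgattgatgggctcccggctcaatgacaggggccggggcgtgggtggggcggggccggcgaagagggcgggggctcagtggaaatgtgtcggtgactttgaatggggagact
Cebpa: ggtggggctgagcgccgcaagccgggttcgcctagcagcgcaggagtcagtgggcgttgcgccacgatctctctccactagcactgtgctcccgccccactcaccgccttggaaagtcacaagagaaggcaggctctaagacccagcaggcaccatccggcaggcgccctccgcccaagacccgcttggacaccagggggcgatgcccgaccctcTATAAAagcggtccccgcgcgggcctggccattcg
Cebpb: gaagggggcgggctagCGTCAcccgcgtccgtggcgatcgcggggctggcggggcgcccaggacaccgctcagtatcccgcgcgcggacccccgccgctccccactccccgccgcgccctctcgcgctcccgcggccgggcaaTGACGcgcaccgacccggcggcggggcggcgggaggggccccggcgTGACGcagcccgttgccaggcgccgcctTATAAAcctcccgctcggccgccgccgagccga
Cebpg: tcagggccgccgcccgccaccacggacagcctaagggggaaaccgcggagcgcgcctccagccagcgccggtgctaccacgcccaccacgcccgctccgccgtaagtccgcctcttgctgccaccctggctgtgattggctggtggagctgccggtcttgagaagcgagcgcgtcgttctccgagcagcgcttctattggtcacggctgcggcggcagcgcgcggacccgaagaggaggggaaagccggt
The motifs searched on both strands were C/EBP (TTGCNNAA), the core of the cyclic AMP response element (CRE, TGACG), STAT (TTCNNNGAA) and ETS (CCGGAA). The others were EGR (GCGNGGGCG), FOXO (GTAAACA), the SRF CArG box and the TATA box (TATAAA), and no matches overlapped. In Trib2 the capitals mark a FOXO match at bases 246 to 240 before the start and an EGR match at bases 196 to 188. Among 33469 rat promoter stretches of this length a FOXO match was found in 3.21% and an EGR match in 4.29%. Cebpb had 3 CRE core matches, at bases 234 to 230, 107 to 103 and 61 to 57, and a TATA box at bases 33 to 28. Of all promoters 18.2% had at least 1 CRE core and 12.9% a TATA box, and the share with 3 CRE cores was not counted. Cebpa had a TATA box at bases 35 to 30, and no searched motif was found in the Cebpg stretch. The shares of all promoters with a C/EBP, STAT, ETS or CArG match were 9.22%, 7.67%, 12.6% and 1.5%, and none of the 4 stretches held these letters, which says nothing of the factors themselves. The stretches were rich in G and C, at 72.8% in Trib2, 67.2% in Cebpa, 80.0% in Cebpb and 70.4% in Cebpg. Cebpa and Cebpg are neighbours on chromosome 1 in that table, with 1 other listed gene and 0 protein-coding genes between them.

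An array held 31099 probe sets, of which 50.1% to 50.4% reached an intensity of 16 on each array. A probe set was entered in the tests of other genes where it reached 16 on at least 3 arrays, which kept 15856. Of the 16 probe sets of the 6 genes 9 passed, namely 1 of Trib1, 1 of Trib2, 4 of Cebpa, 1 of Cebpb, 0 of Cebpd and 2 of Cebpg. The spread between arrays of a group had a median SD of 0.102 on the log2 scale, and 3 arrays a group set the precision. Germ cell markers were at levels such as 5110 to 5740 for Uchl1, 1890 to 4480 for Ret and 439 to 984 for Sall4. Gfra1 (7.35 to 12.7), Thy1 (3.8 to 5.98) and Nanos3 (14 to 15.5) were under 16 on every array, Lin28a (7.87 to 17.9) was not tested, and Ddx4, Dazl and Zbtb16 were not analysed here. Of 17 immune markers only Cd3e was tested, and Ptprc, the common leukocyte antigen, was at 5.42 to 5.76. The 13 tested markers of germ cells and undifferentiated spermatogonia had a mean on the log2 scale of 10.046 ± 0.093 after withdrawal. It was 10.204 ± 0.024 at 2 h, 10.395 ± 0.041 at 4 h, 10.354 ± 0.039 at 8 h and 10.489 ± 0.071 in the control (SD, n = 3 each). Of a separate list of differentiating and meiotic germ cell markers 5 were tested, such as Sycp3 (11800 to 15700) and Kit (91 to 193). Their mean was 10.326 ± 0.095 after withdrawal, 10.421 ± 0.034 at 2 h and 10.35 ± 0.038 at 4 h. At 8 h it was 10.295 ± 0.031 and in the control 10.206 ± 0.041 (SD, n = 3 each). The 7 tested Sertoli cell markers had 6.054 ± 0.056 after withdrawal, 6.081 ± 0.024 at 2 h, 6.103 ± 0.062 at 4 h, 6.101 ± 0.048 at 8 h and 6.396 ± 0.016 in the control (SD, n = 3 each). The mean of the 13 and the Sertoli mean were lower after withdrawal than in the control, and that of the differentiating list was higher. Past the threshold, 2 of the 13 were higher and 8 lower. For the differentiating list it was 1 higher and 0 lower, and for the Sertoli list 1 higher and 2 lower. Of all tested probe sets 21.1% were past the threshold in that comparison. Summed intensities of the 13 were lower too (33246 to 35152 against 42317 to 45178), but summed Sertoli intensities were higher (3793 to 4065 against 3441 to 3624). The Sertoli markers Dhh (15.3 to 66.9), Wt1 (15.2 to 43) and Kitlg (11.1 to 17.8) went under 16. Among the 13 germ cell markers Bcl6b ran from 133 to 1650 and Uchl1 only from 5110 to 5740. Their mean therefore need not follow the number of germ cells. The part of the germ cell and Sertoli markers in the other results was not tested, and of the Leydig and peritubular markers 0 were tested. All 20 mesenchymal markers (fibroblast or feeder) were on the array and 14 were tested, while Pdgfrb, Col6a1, Lum, Postn, Thy1 and Tagln were under 16. The summed intensities of the 14 were 5545 to 10895 after withdrawal, 5278 to 6113 at 2 h, 5793 to 8479 at 4 h, 9117 to 11090 at 8 h and 8576 to 12109 in the control.

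Trib1 was low after withdrawal, high at 2 h and 4 h of GDNF, and low again at 8 h. Its only probe set that reached 16, 1371019_at, had intensities of 19.22, 12.94 and 8.535 in withdrawal cultures. After GDNF was returned they were 50.87, 53.25 and 44.1 at 2 h, 66.6, 59.52 and 63.83 at 4 h and 30.15, 15.2 and 26.9 at 8 h. In control cultures they were 50.16, 40.22 and 49.14. All 3 withdrawal arrays lay below all control, 2 h and 4 h arrays, and the 4 h arrays lay above every other array. The group means were 13.56 ± 5.37 after withdrawal, 49.41 ± 4.75 at 2 h, 63.32 ± 3.57 at 4 h, 24.09 ± 7.86 at 8 h and 46.51 ± 5.47 in the control (SD, n = 3 each).

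**Figure D1:**
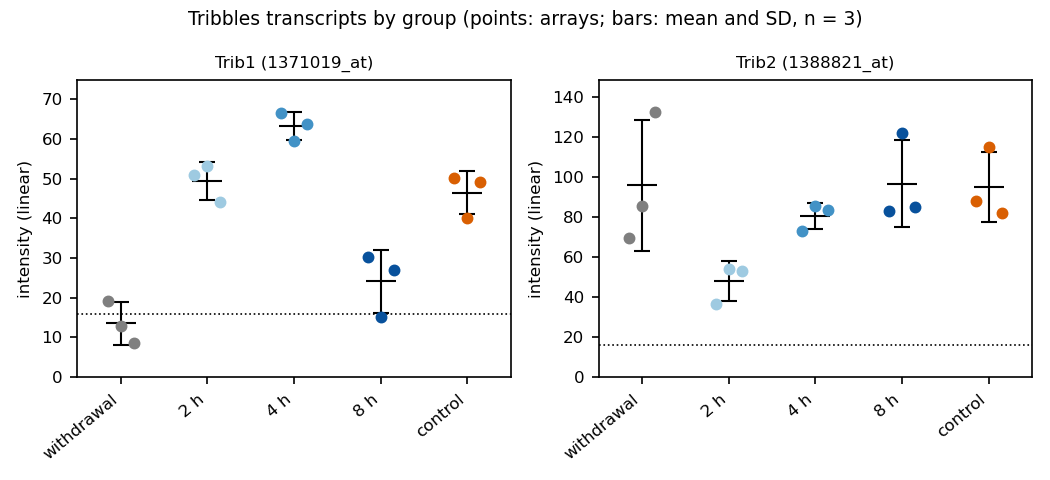
Intensity (linear scale, y axis) of the Trib1 probe set 1371019_at and the Trib2 probe set 1388821_at by group; points are arrays, bars are mean and SD over 3 cultures, and the dotted line marks an intensity of 16. The Trib1 withdrawal arrays, at 8.535 to 19.22, and the 4 h arrays, at 59.52 to 66.6, form the low and high ends, and the Trib2 arrays at 2 h, at 36.7 to 54.22, lie below all others.

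In order of level the groups ran 4 h, 2 h, control, 8 h and withdrawal. The 2 h and control arrays overlapped, as did the 8 h and withdrawal arrays, while 4 h stood clear of 2 h and the control stood clear of 8 h. The log2 difference was 1.94 for 2 h minus withdrawal, 2.30 for 4 h minus withdrawal and 0.85 for 8 h minus withdrawal, each with an SE of 0.257. Against the control the log2 differences were −1.85 for withdrawal, 0.09 for 2 h, 0.45 for 4 h and −1.002 for 8 h, with the same SE. The second low level was thus measured at 8 h with GDNF present, at 2.13-fold below 2 h, and the 8 h array of replicate 2, at 15.2, was the lowest of its group. Without that array the log2 difference of 8 h minus control was −0.70, against −1.002 with it.

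The low end of Trib1 lay near the limit of the measurement, since 1 of 3 withdrawal arrays and 2 of 3 arrays at 8 h reached 16. With every value under 16 set to 16, the log2 difference was 1.53 for 2 h minus withdrawal, 1.90 for 4 h, 0.47 for 8 h and −1.44 for withdrawal minus control. The signs were kept in each. The 2 other Trib1 probe sets, 1392848_at at 4.712 to 4.863 and 1389987_at at 4.327 to 5.094, were under 16 on all 15 arrays, so the Trib1 course rests on 1 probe set.

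Trib2, the paralog that shares the COP1-binding tail of TRIB1, had another course. Its probe set 1388821_at had intensities of 69.46, 85.62 and 132.8 after withdrawal. After GDNF was returned they were 36.7, 54.22 and 53.18 at 2 h, 73.33, 85.39 and 83.56 at 4 h and 83.22, 122 and 85.11 at 8 h. In the control they were 88.22, 115.2 and 81.93. The 2 h arrays were below all other arrays, and the other 4 groups overlapped each other. The log2 difference was −0.97 for 2 h minus withdrawal, −0.99 for 2 h minus control and 1.01 for 8 h minus 2 h (SE 0.223 each), and −0.03 for withdrawal minus control. At 2 h Trib1 was thus 3.83-fold above and Trib2 1.95-fold below withdrawal cultures. The second Trib2 probe set, 1385124_at, stayed at 4.396 to 9.104 and was not tested.

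Cebpa was highest at 4 h in all 4 probe sets that were tested. The probe set with the highest mean, 1384127_at, had intensities of 317.8, 295.6 and 325.0 after withdrawal. After GDNF was returned they were 322.1, 373.8 and 435.9 at 2 h, 443.6, 455.7 and 440.8 at 4 h and 311.8, 283.7 and 312.0 at 8 h. In the control they were 356.7, 385.8 and 351.5. The 4 h arrays were close to each other and above all other arrays, the control arrays were above the withdrawal and 8 h arrays, and the 2 h arrays spread across the control range. For 1383243_at the group means were 190.4 ± 15.2 after withdrawal, 215.9 ± 9.4 at 2 h, 281.5 ± 23.6 at 4 h, 181.4 ± 19.2 at 8 h and 207.3 ± 7.48 in the control (SD, n = 3 each).

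The remaining probe sets repeat this order at 4 h. In 1384126_a_at the means were 165.7 ± 4.61 after withdrawal, 200.7 ± 16.8 at 2 h, 251.3 ± 19.6 at 4 h, 145.8 ± 12 at 8 h and 195.8 ± 30.9 in the control. In 1383242_a_at they were 123.2 ± 15.9 after withdrawal, 152.2 ± 17.8 at 2 h, 204.4 ± 18 at 4 h, 125.5 ± 16.4 at 8 h and 161.1 ± 26.1 in the control (SD, n = 3 each). Over the probe sets in the order named, the log2 difference of 4 h minus withdrawal was 0.52, 0.56, 0.60 and 0.74 (SE 0.088, 0.089, 0.105 and 0.136). The 4 h and withdrawal arrays overlapped in none of them, as in 41.3% of all tested probe sets. Compared with the control, 4 h was higher by 0.29, 0.44, 0.37 and 0.35, with overlap in 1384126_a_at and arrays that met at 189.8 in 1383242_a_at (34.5% of all tested probe sets had no overlap). For 8 h minus withdrawal the log2 differences were −0.05, −0.07, −0.19 and 0.03, and the arrays overlapped in all but 1384126_a_at (40.9% had no overlap). The arrays at 8 h lay below all control arrays in the first 3 probe sets (−0.27, −0.20 and −0.42) and overlapped them in 1383242_a_at (−0.36), where 30.2% of all tested probe sets had no overlap.

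**Figure D2:**
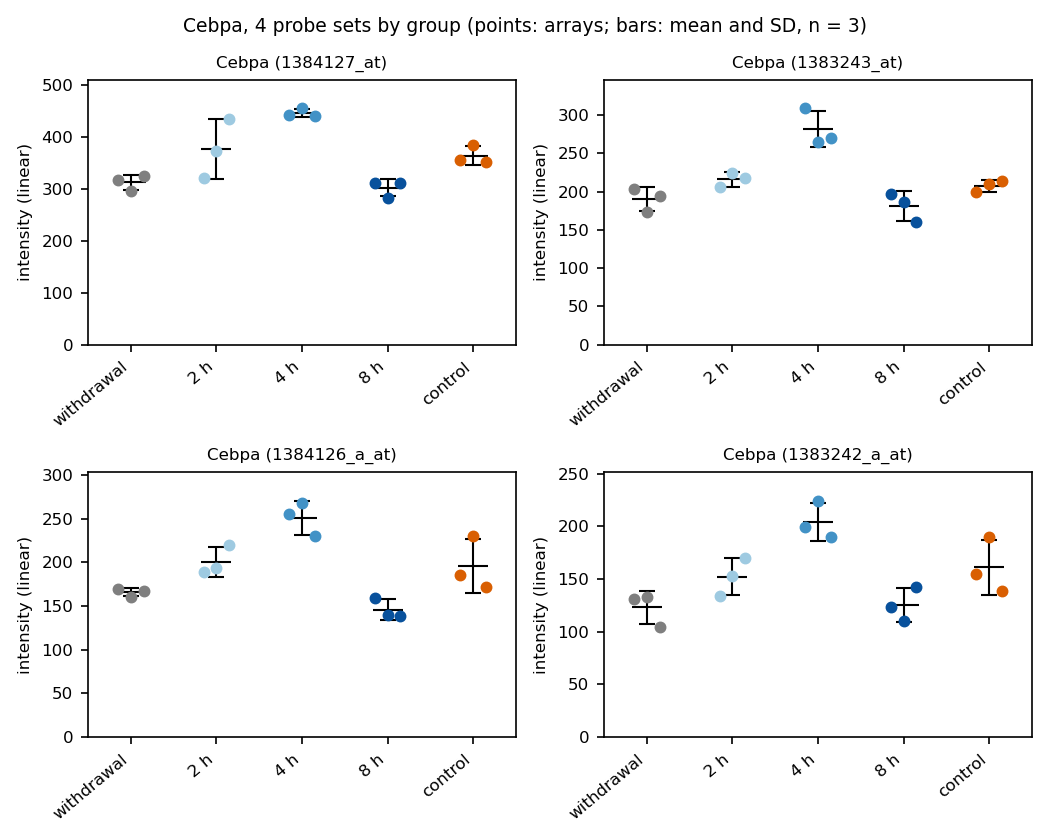
Intensity (linear scale, y axis) of the 4 tested Cebpa probe sets by group; points are arrays and bars are mean and SD over 3 cultures. The 4 h means of 446.7, 281.5, 251.3 and 204.4 are the highest of the 5 groups in every panel, and withdrawal and 8 h are the lowest groups in every panel.

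These 4 probe sets are not independent measurements, since they read the same RNA and come from only 2 source sequences, 1384127_at with 1384126_a_at and 1383243_at with 1383242_a_at. The fifth Cebpa probe set, 1369658_at, stayed at 5.219 to 6.976. Trib1 also had its highest group mean at 4 h. Between the Trib1 probe set and the 4 Cebpa probe sets, r over all 15 arrays was 0.68 to 0.78, and −0.06 to 0.32 once each array was taken as its deviation from its group mean.

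Cebpb, an early-response C/EBP gene, was lower at 2 h and 4 h than in the control. Its probe set 1387087_at had intensities of 671.7, 918.2 and 1127 after withdrawal. After GDNF was returned they were 599.9, 586.2 and 785.1 at 2 h, 607.3, 678.9 and 745 at 4 h and 898.9, 1059 and 901.5 at 8 h. In the control they were 999.2, 1234 and 1047. All arrays at 2 h and 4 h lay below all arrays at 8 h and in the control, and the withdrawal arrays ran across most of that span. The log2 difference was −0.74 for 2 h minus control, −0.69 for 4 h minus control and 0.55 for 8 h minus 2 h (SE 0.157 each). Against withdrawal it was −0.44 at 2 h, −0.39 at 4 h and 0.10 at 8 h, with overlap each time. The 2 h difference was −0.27 without withdrawal replicate 3 and −0.64 without withdrawal replicate 1.

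Cebpd, the usual partner of Cebpb in cytokine responses, was close to the bottom of the scale. In 1387343_at the intensities were 6.034, 10.75 and 13.38 after withdrawal. On replacement they were 4.688, 4.667 and 4.962 at 2 h, 4.65, 8.993 and 9.047 at 4 h and 9.627, 12 and 9.562 at 8 h. The control arrays had 12.99, 19.27 and 9.562. Only control replicate 2 reached 16, and 1368813_at also reached 16 only there, at 16.75, with 5.204 to 8.971 on the other arrays. The order of the group means in both probe sets was control, 8 h, withdrawal, 4 h and 2 h, which is the order of the Cebpb means as well, but values under 16 depend on the background estimate and were not tested. The third probe set, 1389828_at, stayed at 2.323 to 2.373.

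**Figure D3:**
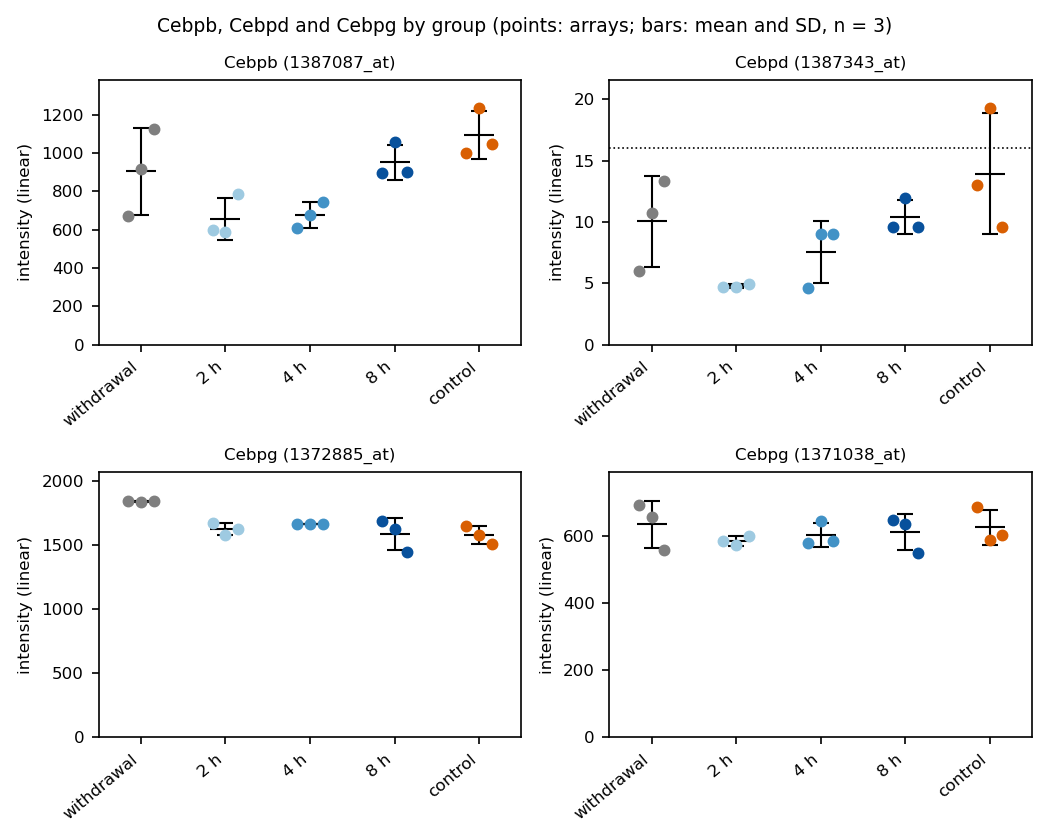
Intensity (linear scale, y axis) of Cebpb, of the Cebpd probe set 1387343_at and of both Cebpg probe sets by group; points are arrays, bars are mean and SD over 3 cultures, and the dotted line marks an intensity of 16. Cebpb lies lowest at 2 h and 4 h, Cebpd is under the dotted line on all arrays but control replicate 2, and Cebpg 1372885_at lies at 1837 to 1847 after withdrawal and lower in the other groups.

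Cebpg was high throughout, and 1 of its 2 probe sets was higher after withdrawal. In 1372885_at the intensities were 1841, 1837 and 1847 after withdrawal. On replacement they were 1669, 1577 and 1628 at 2 h, 1662, 1662 and 1668 at 4 h and 1686, 1628 and 1444 at 8 h. The control arrays had 1647, 1576 and 1511. The withdrawal arrays were above all others, and the replacement times lay within 0.08 of the control on the log2 scale. The log2 difference was 0.22 for withdrawal minus control, −0.18 for 2 h minus withdrawal, −0.15 for 4 h and −0.22 for 8 h (SE 0.051 each), or −0.15 for 8 h without replicate 3. The other probe set, 1371038_at, did not show this, with means of 636.1 ± 70.5 after withdrawal, 587 ± 14.9 at 2 h, 603.6 ± 36.2 at 4 h, 611.7 ± 53.7 at 8 h and 626.5 ± 53.1 in the control (SD, n = 3 each), all overlapping.

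Differences past the threshold were common on these arrays. Of the 9 probe sets, 2 were past an adjusted p of 0.05 (limma, Benjamini-Hochberg) for withdrawal minus control, where 21.1% of all tested probe sets were. The count was 5 for 2 h minus withdrawal (26.1% of all), 6 for 4 h minus withdrawal (30.6%) and 2 for 8 h minus withdrawal (25%). Against the control it was 2 at 2 h (22.6%), 4 at 4 h (21.6%) and 2 at 8 h (12.3%), and it was 6 for 8 h minus 2 h (26.2%). Since the genes were taken with these values known, nothing is read from the counts. The groups did not overlap for 5 of the 9 in withdrawal minus control (34.3% of all tested probe sets), and for 6, 6 and 2 in 2 h, 4 h and 8 h minus withdrawal (42.7%, 41.3% and 40.9%). They did not overlap for 2, 6 and 4 in 2 h, 4 h and 8 h minus control (39%, 34.5% and 30.2%) and for 6 in 8 h minus 2 h (45.6%). The 3 replacement comparisons with withdrawal share the withdrawal arrays, and the comparisons with the control share the control arrays. The median log2 difference of all tested probe sets lay between −0.024 and 0.0136 in the 8 comparisons.

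Levels of Cebpb and Trib2 ran with the mesenchymal markers within groups, which is given as a description of genes chosen on these arrays. The 14 tested mesenchymal markers had a mean on the log2 scale of 8.48 ± 0.467 after withdrawal, 7.963 ± 0.127 at 2 h, 8.237 ± 0.273 at 4 h, 8.697 ± 0.135 at 8 h and 8.542 ± 0.237 in the control (SD, n = 3 each). Of these 14 genes 5 fell and 0 rose for 2 h minus withdrawal and 11 rose and 0 fell for 8 h minus 2 h. Of all tested probe sets 26.1% and 26.2% were past the threshold in these comparisons. After removal of the group means, Cebpb was higher by 0.74 ± 0.108 log2 units for each log2 unit of that mean (limma SE) and Trib2 by 0.88 ± 0.214. The slope was −0.98 ± 0.259 for Trib1, between −0.12 and 0.11 for the 4 Cebpa probe sets and −0.12 and 0.03 for the Cebpg probe sets.

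**Figure D4:**
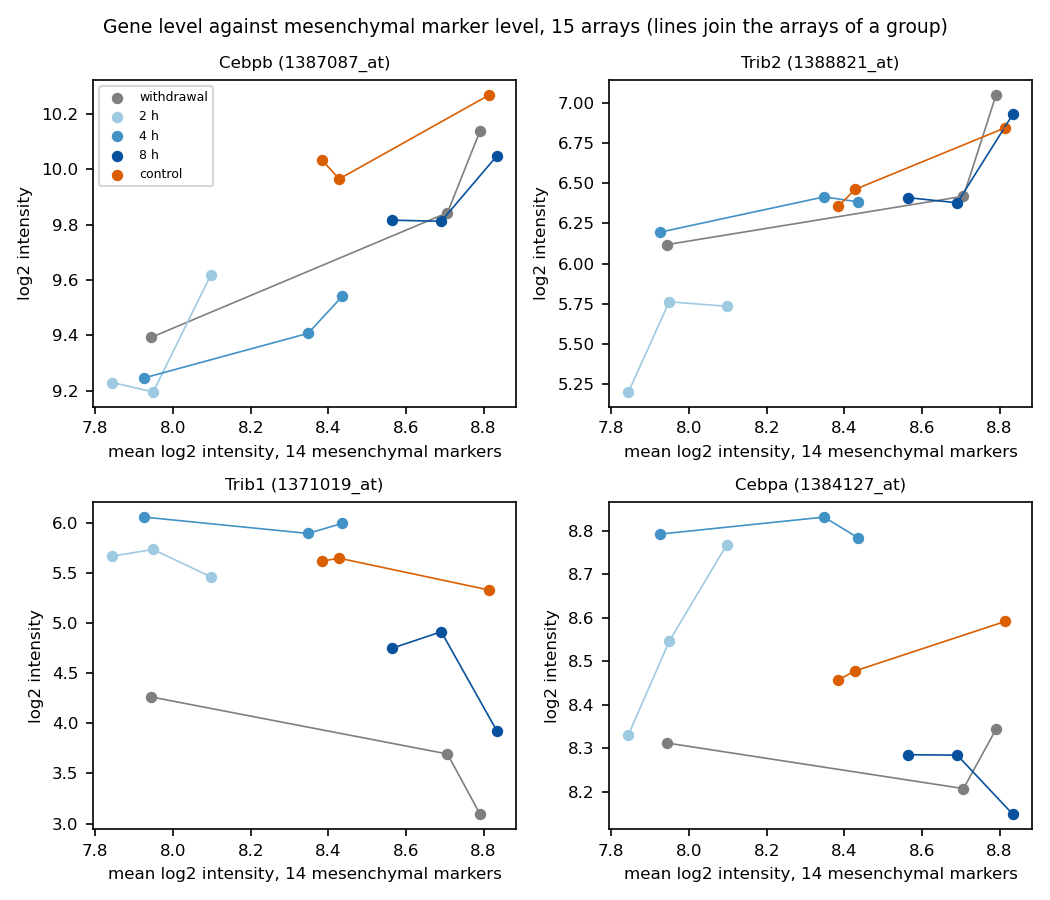
Log2 intensity of Cebpb, Trib2, Trib1 and Cebpa (y axis) against the mean log2 intensity of 14 mesenchymal markers (x axis) on the 15 arrays; lines join the arrays of a group. Cebpb and Trib2 are highest in each group on or near the array with the highest marker mean, Trib1 is lowest there in every group but 4 h, and Cebpa has no common slope.

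The arrays show it plainly in the withdrawal group. Its replicate 1 had a marker mean of 7.943, against 8.707 and 8.791 for replicates 2 and 3, and was the lowest for Cebpb and Trib2 and the highest for Trib1. With the marker mean as a covariate, the log2 difference of 2 h minus withdrawal was −0.06 for Cebpb, −0.51 for Trib2 and 1.43 for Trib1. For 8 h minus 2 h it was 0.00 for Cebpb, 0.36 for Trib2 and −0.38 for Trib1, against 0.55, 1.01 and −1.09 without the covariate. For 2 h minus control it was −0.31 for Cebpb, −0.48 for Trib2 and −0.48 for Trib1, against −0.74, −0.99 and 0.09 without it. The marker means at 2 h (7.844 to 8.097) overlapped neither those at 8 h (8.565 to 8.834) nor those of the control (8.384 to 8.815). Adjusted differences of 2 h from these groups therefore extend a slope fitted within groups, and group and marker level cannot be told apart there. For Trib1, withdrawal minus control was −1.91 and 4 h minus withdrawal 2.06 with the covariate. For the 4 Cebpa probe sets, 4 h minus withdrawal was 0.53, 0.54, 0.63 and 0.74 with it. In bulk RNA fewer cells of a type and less RNA per cell cannot be told apart, and the part of the marker level in the group differences was not tested beyond this covariate. Within groups r was −0.85 between Trib1 and Trib2, −0.84 between Trib1 and Cebpb and 0.81 between Trib2 and Cebpb, a description over 15 arrays that share this marker level.

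The ligase that Tribbles proteins recruit was next compared. This list and those below were chosen with earlier results of these data known, and genes were named by smallest adjusted p. Their p-values therefore describe these arrays and are not independent tests. Of 9 tested genes for COP1, its cullin-RING ligase and Tribbles-binding kinases, 1 rose and 2 fell for withdrawal minus control (median log2 difference −0.002, against 0.0136 for all tested probe sets). Against withdrawal, 1 rose and 1 fell at 2 h (median −0.038, all −0.0215), 1 rose and 2 fell at 4 h (0.001, all −0.0083) and 0 rose and 1 fell at 8 h (0.047, all −0.024). Of all tested probe sets 21.1% were past the threshold for withdrawal minus control. Against withdrawal the shares were 26.1% at 2 h, 30.6% at 4 h and 25% at 8 h. Ddb1, the adaptor of the cullin 4 ligase, averaged 3840 ± 92.1 after withdrawal, 3160 ± 77.7 at 2 h, 3111 ± 95 at 4 h, 3352 ± 68.9 at 8 h and 3350 ± 264 in the control (SD, n = 3 each). It rose by 0.20 for withdrawal minus control (limma adjusted p = 0.00773) and fell by 0.28, 0.30 and 0.20 at 2 h, 4 h and 8 h (adjusted p = 0.00071, 0.000221 and 0.00747). Of its other probe sets 1399162_a_at fell at 2 h and 4 h only (−0.22 and −0.21) and 1398881_at did not pass. Cop1, the ligase itself, averaged 1285 ± 61.4 at 4 h and 1452 ± 19.1 after withdrawal (log2 difference −0.18, adjusted p = 0.0476). For withdrawal minus control the kinase gene Akt1 fell by 0.26 (adjusted p = 0.017) and the cullin gene Cul4b by 0.16 (0.0328). Against withdrawal Cul4b rose by 0.16 at 4 h (0.0259) and Cul4a by 0.17 at 2 h (0.0338). The second probe sets of Akt1 and Cul4b did not pass. The call on Ddb1 for withdrawal minus control was lost when only those groups were fitted (adjusted p = 0.0652), and the calls on the other genes were lost without certain arrays. The call on Akt1 was lost without control replicate 3 or withdrawal replicate 1 (adjusted p = 0.0757 and 0.0758). That on Cul4b was lost without any of 4 arrays for withdrawal (up to 0.134, without withdrawal replicate 2) or 2 arrays at 4 h (up to 0.121, without its replicate 2). That on Cul4a was lost without any of 4 arrays (up to 0.151, without 2 h replicate 1) and Cop1 without any of 8 arrays (up to 0.165, without 4 h replicate 2). With the mesenchymal mean as a covariate Cul4a at 2 h had an adjusted p of 0.0913. The third Tribbles gene, Trib3, and the kinase gene Stk11 did not reach the filter.

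In a list of other genes named C/EBP and of bZIP genes that pair with or resemble C/EBP factors, 13 were tested. Cebpz is in that list by its name. Of these 3 rose and 1 fell for withdrawal minus control (list median 0.037). Against withdrawal, 5 rose and 3 fell at 2 h (0.093), 3 rose and 2 fell at 4 h (−0.06) and 2 rose and 2 fell at 8 h (−0.027). The shares of all tested probe sets past the threshold were 21.1%, 26.1%, 30.6% and 25% in the same order. For withdrawal minus control the circadian PAR factor gene Dbp rose by 0.51 (limma adjusted p = 0.00829), Crem, which encodes cyclic AMP-response factors of the male germ line, by 0.40 (0.00321, while its 3 other probe sets did not pass) and Cebpz by 0.24 (0.00419). At 2 h Ddit3, which encodes the C/EBP partner CHOP, averaged 326.2 ± 30.1, against 222.9 ± 16.9 after withdrawal (SD, n = 3 each; log2 difference 0.55, adjusted p = 0.00148), and Atf4, the stress-response factor that also pairs with C/EBP proteins, rose by 0.21 (0.00319). Crebzf rose by 0.31, 0.29 and 0.18 at 2 h, 4 h and 8 h (limma adjusted p = 0.000222, 0.000213 and 0.00834). Of its 3 other probe sets 1 passed, at 4 h. At 2 h these 3 were at 0.14, −0.21 and −0.26, so the direction of the 2 h rise was not shared by all its probe sets. Batf3, which with Batf belongs to the BATF family, averaged 679 ± 26.9 at 4 h and 433.6 ± 18.4 after withdrawal (log2 difference 0.65, adjusted p = 7.98e-06) and rose at 8 h as well (0.36, 0.00169). Batf fell to 64.12 ± 4.35 at 4 h, against 99.37 ± 12 after withdrawal (−0.63, adjusted p = 0.000165). Atf2 fell by 0.25 at 8 h (0.0128), a call lost without withdrawal replicate 1 or 8 h replicate 3 (0.0591 and 0.0654). At 2 h it was among the 5 genes that rose (0.295, adjusted p = 0.00479), a value named after it was seen, so its direction differed between the times. The granulocyte factor gene Cebpe and the genes Atf3 and Nfil3 did not reach the filter.

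**Figure D5:**
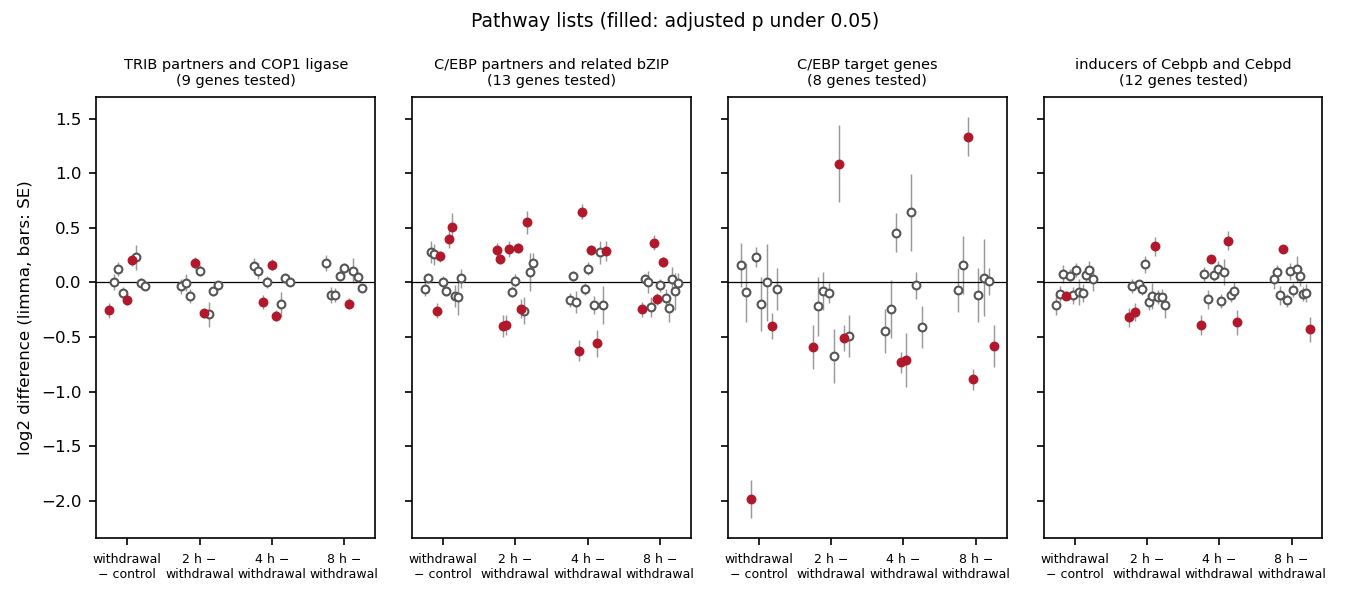
Log2 difference with its limma SE (y axis) of each tested gene of the 4 lists in withdrawal minus control and in 2 h, 4 h and 8 h replacement minus withdrawal (x axis); filled points have an adjusted p under 0.05. The COP1 list stays near 0, while in the C/EBP target list Csf3r, whose withdrawal arrays were all under 16, is at −1.99 for withdrawal minus control and 1.33 for 8 h minus withdrawal.

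Of 34 genes on the array that are known as C/EBP targets in liver, fat or myeloid cells, only 8 reached the filter and were tested. Of the 8 genes 0 rose and 2 fell for withdrawal minus control (list median −0.078). Against withdrawal, 1 rose and 2 fell at 2 h (−0.356), 0 rose and 2 fell at 4 h (−0.328) and 1 rose and 2 fell at 8 h (−0.032). The shares of all tested probe sets past the threshold were 21.1%, 26.1%, 30.6% and 25% in the same order. Csf3r, the granulocyte colony-stimulating factor receptor gene, had intensities of 13.02, 12.93 and 10.58 after withdrawal. After GDNF was returned they were 11.82, 9.784 and 13.07 at 2 h, 22.11, 16.55 and 12.56 at 4 h and 27.41, 31.95 and 32.59 at 8 h. In the control they were 49.96, 42.15 and 52.54. It fell by 1.99 for withdrawal minus control (limma adjusted p = 1.49e-06) and rose by 1.33 for 8 h minus withdrawal (6.78e-05), while the difference was −0.08 at 2 h (0.779) and 0.46 at 4 h (0.0634). Its 2 h arrays overlapped those of withdrawal and its 8 h arrays were nearest to the control, whereas for Trib1 the 2 h arrays were nearest. All withdrawal and 2 h arrays of Csf3r were under 16. With values under 16 set to 16, its log2 difference was −1.585 for withdrawal minus control (adjusted p = 2.43e-07) and 0.934 for 8 h minus withdrawal (4.75e-05).

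Other targets moved in different directions. Cxcl1, a neutrophil chemokine, fell to 418.1 ± 27.6 at 4 h and 374.7 ± 14.2 at 8 h, against 696.9 ± 75.8 after withdrawal (SD, n = 3 each; −0.73 and −0.89, limma adjusted p = 2.9e-05 and 6.36e-06). Lcn2, which encodes a siderophore-binding protein, fell by 0.51 at 2 h (0.00698) and by 0.40 for withdrawal minus control (0.03). Il6 had intensities of 7.333, 18.58 and 24.88 at 2 h and 7.063, 7.167 and 7.003 after withdrawal, a log2 difference of 1.09 (0.034) that 2 of 3 arrays carried. All its withdrawal arrays were under 16, and with values under 16 set to 16 the difference was 0.28 and the call was lost (adjusted p = 0.0959). The complement gene C3 fell by 0.59 at 2 h (0.0437), the haptoglobin gene Hp by 0.71 at 4 h (0.04) and the feedback inhibitor gene Socs3 by 0.585 at 8 h (0.0368), with overlap between the arrays in each. Several of these calls were lost without single arrays. They were Lcn2 for withdrawal without any of 4 arrays (up to 0.124, without control replicate 3) and Il6 without any of 5 (up to 0.161, without 2 h replicate 3). They were also C3 without any of 9 (up to 0.19, without withdrawal replicate 3), Hp without any of 6 (up to 0.196, without withdrawal replicate 3) and Socs3 without any of 4 (up to 0.169, without 8 h replicate 3). With the mesenchymal mean as a covariate C3 at 2 h had an adjusted p of 0.603 and Hp at 4 h of 0.0583.

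Of 12 tested genes on the routes that induce Cebpb and Cebpd or phosphorylate C/EBP beta, 0 rose and 1 fell for withdrawal minus control (list median −0.028). Against withdrawal, 1 rose and 2 fell at 2 h (−0.129), 2 rose and 2 fell at 4 h (−0.003) and 1 rose and 1 fell at 8 h (−0.021). The shares of all tested probe sets past the threshold were 21.1%, 26.1%, 30.6% and 25% in the same order. Jak1, a cytokine receptor kinase gene, averaged 3366 ± 92.6 after withdrawal, 3914 ± 202 at 4 h, 4164 ± 48.2 at 8 h and 3661 ± 71.3 in the control (SD, n = 3 each). It rose by 0.22 at 4 h and 0.31 at 8 h (limma adjusted p = 0.000453 and 2.88e-05) and fell by 0.12 for withdrawal minus control (0.03), and its second probe set passed in the same directions. The kinase gene Cdk5 fell by 0.32 at 2 h and 0.39 at 4 h (0.0145 and 0.00363). Rps6ka3, which encodes the ERK-activated kinase RSK2, rose by 0.33 at 2 h and 0.38 at 4 h (0.0118 and 0.00376), but another probe set, 1397750_at, fell by 0.59 at 2 h (0.000114), so its direction at 2 h is uncertain. Il6st, the shared receptor subunit of the interleukin 6 family, fell by 0.27 at 2 h (0.0304), and of its 3 other probe sets 1 also fell (−0.47). Stat5b fell by 0.43 at 8 h (0.0112). Calls lost without single arrays were those of Jak1 for withdrawal (3 arrays, up to 0.123, without withdrawal replicate 2) and Rps6ka3 at 2 h (2 arrays, up to 0.057, without 2 h replicate 1). The same held for Cdk5 at 2 h (3 arrays, up to 0.0686, without withdrawal replicate 3), whose log2 difference with the mesenchymal mean as a covariate was −0.156 (adjusted p = 0.184), Il6st (5 arrays, up to 0.109, without withdrawal replicate 2) and Stat5b (1 array, 0.0595, without 8 h replicate 2).

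The genes whose levels ran most like Trib1 over the 15 arrays, among 8954 candidates, were Tmem199 (r = 0.936), Alg13l1 (0.921), Zbtb10 (0.916), Ippk (0.913) and Wdr77 (0.913). Alg13l1 averaged 313.1 ± 19.1 after withdrawal, 823.1 ± 18.1 at 2 h, 858.4 ± 34 at 4 h, 485.6 ± 25.8 at 8 h and 580 ± 24.9 in the control (SD, n = 3 each). Like Trib1 it had its highest group mean at 4 h and its lowest after withdrawal. The most opposite courses were those of Cdkn1b (r = −0.918), which encodes the cell cycle inhibitor p27, Sdc1 (−0.912) and Trub2 (−0.898). Cdkn1b averaged 140.4 ± 5.21 after withdrawal, 92.54 ± 5.66 at 2 h, 73.52 ± 7.15 at 4 h, 109.7 ± 17.2 at 8 h and 91.4 ± 7.49 in the control. Of the 5 alike genes 2 were also among the 5 by rank correlation, and 0 of the 5 by deviations from group means.

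For Trib2 the most alike genes were the homeobox genes Meis1 (r = 0.921) and Zfhx4 (0.917) and the dynamin gene Dnm1 (0.909), with r of 0.774, 0.763 and 0.79 on deviations from group means. Meis1 averaged 165.9 ± 65.3 after withdrawal, 51.86 ± 0.849 at 2 h, 132.5 ± 30.6 at 4 h, 212.9 ± 16.8 at 8 h and 175.9 ± 69.8 in the control (SD, n = 3 each), so it too was lowest at 2 h. For Cebpb they were the lipid desaturase gene Scd2 (0.941), Rnaset2 (0.939) and Cox8a (0.935), with within-group r of 0.859, 0.927 and 0.814. For Cebpa they were the zinc transporter gene Slc39a7 (0.859), the sterol pathway gene Fdps (0.854) and the kinase gene Clk3 (0.851), with within-group r of only 0.052, 0.255 and 0.287. Fdps averaged 4036 ± 33.2 after withdrawal, 4503 ± 103 at 2 h, 4773 ± 215 at 4 h, 3622 ± 69 at 8 h and 4230 ± 44.5 in the control. For the Cebpg probe set 1372885_at they were Atg4b (0.92), Os9 (0.889) and Pdzd4 (0.887), with within-group r of 0.675, 0.882 and 0.827. By rank correlation Pdzd4 had 0.625, at rank 312 of 8954 candidates.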

How the data were processed

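Values were 1 linear intensity per probe set and array, deposited by the authors in 1 table. GCRMA and Partek 6.3 are named, per the submitters' processing notes, with settings not given in the sources used here; GCRMA models background from the probes' base content, so values near the bottom rest on that model. Intensities were taken to log2 without further scaling. After 57 control probe sets were left out, 15856 of 31099 with log2 of at least 4 (intensity 16) on at least 3 arrays were tested. Names came from the platform annotation, updated through RefSeq's GRCr8 gene table: 20832 probe sets had 1 symbol (20764 matched), 436 several and 9831 none. Group means were fitted with limma 3.58.1 in R 4.3.3 (lmFit, eBayes with an intensity trend) over all 15 arrays in 8 comparisons, with two-sided p-values adjusted by Benjamini-Hochberg within each and a threshold of 0.05. A fold is the larger over the smaller group on the log2 fit. The steps were tested on simulated data. A gene with several probe sets is represented by the tested one with the highest mean.

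The 6 genes, the lists of related genes and the markers were chosen with earlier results of these data known. Named genes are all probe sets of the 6, up to 3 genes per list with the smallest adjusted p in each of 4 comparisons, and the genes most like each of them by Pearson r. Replicate numbers were not taken as pairs: 8 of 30 correlations between same-numbered arrays exceeded 0.1 (−0.138 to 0.389). Those of replicate 1 were all positive (0.01 to 0.389), so shared handling of same-numbered arrays is not settled. Alternatives were other filters, a floor at 16, median centring, quantile normalization, eBayes without a trend, array weights, fits of the compared groups alone, removal of multi-target probe sets, a replicate block, a mesenchymal covariate and each array left out. Leaving out 3 arrays together (replicate 1 of withdrawal, 4 h and control, lowest on the first within-group component) was chosen after seeing the data.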

Additional observations from a re-analysis of the deposited data

How the results depend on the processing

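No result changed direction in the calls of the lists or in the log2 differences past the threshold under any setting run. With only the groups compared in the fit, the number of probe sets past the threshold was 2166 for withdrawal minus control (3342 with all arrays), 2025 for 4 h minus control (3430) and 1241 for 8 h minus control (1953); fewer arrays were used there. With the mesenchymal mean as a covariate it was 2181 for 8 h minus 2 h (4157), where the marker means of the groups do not overlap, and the cause was not tested. Summed over the 8 comparisons, calls in the COP1 list were 13, against 8 with no low-value filter and 8 with no intensity trend. Calls in the C/EBP target list became fewer than in the main fit, at 15 with no filter and 10 with a filter at log2 of 6. With the filter at log2 of 6 fewer of its genes were tested, which is not so with no filter. With arrays left out in turn the counts ranged from 2476 to 3538 for withdrawal minus control, 2832 to 4308, 3837 to 4973 and 3022 to 4121 for 2 h, 4 h and 8 h minus withdrawal, 2500 to 3716, 2597 to 3531 and 1312 to 2040 for 2 h, 4 h and 8 h minus control and 3015 to 4287 for 8 h minus 2 h. Centring arrays on their median put 50.6% of calls higher for 8 h minus withdrawal (38.5% without it) and 52.3% for 8 h minus control (39.2%). The replicate numbers were not taken as pairs. With them as a block the counts were 3520, 4291, 5047, 4129, 3778, 3595, 2047 and 4315 in the order of the ranges above, each higher than without the block. Among the 6 genes the values that moved beyond the spread were those of Trib1 with a floor at 16, of Trib1, Trib2 and Cebpb with the covariate and of Cebpg 1372885_at without 8 h replicate 3. Without that array Cebpg was at 0.071 for 8 h minus control (0.005 with it) and 0.028 for 8 h minus 2 h (−0.038), a change of sign in a difference that did not pass. With only the groups compared in the fit, calls on Ddb1, Akt1, Cul4b, Lcn2 and Jak1 were lost for withdrawal minus control. Against withdrawal, those on Cul4a, Il6, C3 and Cdk5 were lost at 2 h, Cul4b and Hp at 4 h and Atf2 and Socs3 at 8 h. The calls on Ddb1 at 2 h, 4 h and 8 h, Jak1 at 4 h and 8 h, Lcn2 at 2 h and Cdk5 at 4 h were kept. Intensities under 16 limit Cebpd, the low end of Trib1 and most C/EBP targets.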
